A study of Arabidopsis thaliana with 19 samples.

Results

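The 6 genes that encode the core subunits of Polycomb repressive complex 2 (PRC2) in the plant body were followed through a time course of Arabidopsis thaliana root tip cells. They were CLF (AT2G23380), SWN (AT4G02020), FIE (AT3G20740), EMF2 (AT5G51230), VRN2 (AT4G16845) and MSI1 (AT5G58230). They were taken by locus identifier from a table of 33201 loci, by a rule that uses no measured value, and 6 of 6 were in the table.

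The study made this time course to ask whether the network around the stem cell regulator TCX2 changes with age in a root tip population rich in stem cells. RNA was sequenced from 19 libraries at 7 ages: at full days (4D, 5D and 6D) and 8 h and 16 h after the first 2 of these (written 8H and 16H behind the day). The groups held 3 libraries, other than 4D 8H with 2 and 5D 16H with 2. The seedlings carried PET111:GFP at all ages, with no other treatment or mutant, and grew in long days. Its GFP shows in the mature columella at the very end of the root cap, so that cutting root tips, releasing their cells as protoplasts and sorting for the GFP-negative cells left the tip without those cells. The methods describe the result as mostly stem cells, name the replicates as biological, state that roots of every age were harvested at the same hour of the day, and give each replicate its own batch of seed. Values are FPKM, sequenced fragments per unit of transcript length and of mapped reads.

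Markers were read to check what the sorted cells were. Stem cell niche markers were present (WOX5, of the quiescent centre, averaged 5.08 FPKM and PLT1 5.28 FPKM), and so were markers of mature cells: CASP1, a scaffold of the Casparian strip in differentiated endodermis, averaged 531 FPKM, PRP3 of root hairs 380 FPKM, and RCPG and BRN1 of the root cap 265 and 122 FPKM. The 3 green tissue markers stayed between 0 and 2.01 FPKM. The cells were thus a mixture, and in such bulk RNA fewer cells of a type and less RNA per cell cannot be told apart. Depth, estimated from the steps between low values, lay between 10.5 and 38.8 M reads (M, 1e6) in 18 libraries and was 1.22 M in 5D 16H replicate 2. That library, whose mean Spearman correlation with the others was the lowest at 0.931, held an estimated 8.99 reads of FIE and 53.9 of CLF, against at least 113 of FIE and 522 of CLF in every other library. Results at 5D 16H are therefore given with and without it.

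PRC2 places methyl groups on lysine 27 of histone H3 (H3K27me3), a mark that keeps genes of other organs and stages silent. In plants it holds the flowering, flower organ and embryo programs shut in seedlings. CLF and SWN are alternative catalytic subunits, relatives of Enhancer of zeste of Drosophila. EMF2 and VRN2 are alternative zinc finger subunits, relatives of Suppressor of zeste 12. FIE, the relative of Drosophila Extra sex combs, and MSI1 are WD40 repeat proteins shared by the different forms of the complex.

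Because CLF with SWN, and EMF2 with VRN2, are paralogs, it was asked whether reads could be assigned to the right copy. In the TAIR10.1 assembly (RefSeq) CLF lies at chr2:9955092-9960386 on the plus strand, SWN at chr4:886580-891987 plus, FIE at chr3:7248809-7252452 minus, EMF2 at chr5:20823644-20829644 plus, VRN2 at chr4:9476069-9479878 plus and MSI1 at chr5:23556012-23558245 plus. Of the exonic windows of 50 nucleotides in each gene (926 in FIE to 2625 in CLF), 0 occurred a second time in the nuclear genome. The longest runs shared by the transcripts of related genes are printed to show how short they are.
CLF and SWN: tggacagaaatcaaagaatg
EMF2 and VRN2: gcagattttgaagat
SWN and MEA: ttgctgcgagaaatattgcgggtgctcaaa
The run of CLF and SWN measured 20 nucleotides and crosses an exon junction in both genes (within chr2:9956382-9956505 and chr4:887459-887618). The run of EMF2 and VRN2 measured 15 nucleotides (chr5:20828415-20828429 and chr4:9478991-9479005, both plus strand). SWN shared 30 nucleotides with MEA, the catalytic subunit of the endosperm complex, again across a junction. Neighbours overlap 3 of the genes on the opposite strand: AT2G23370 and AT2G23390 share 58 and 22 nucleotides with CLF, AT3G20730 shares 70 with FIE, and FHIT shares 132 with MSI1. FIE also overlaps AT3G04025 by 210 nucleotides, a locus that was not analysed here. FHIT averaged 19.2 FPKM, and whether counting used strand is not stated, so that reads in that stretch of MSI1 are uncertain.

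The region from 250 bases before to 50 after each gene start was searched, on both strands, for E2F words (TTTCCCGC, TTTGGCGC, TTTCGCGC and TTTGCCGC), the kind that replication genes carry, and for the telobox AAACCCTA, a word bound by the TRB proteins that recruit PRC2. The words did not overlap in these promoters. E2F words were in 0 of the 6 promoters and in 1.76% of 27443 promoters of the genome. The telobox was in 1 of the 6, that of CLF, and in 6.22% of all promoters. It is printed with its surroundings, 5′ to 3′ on the plus strand, with the telobox in capitals as its reverse complement.
CLF, chr2:9955112-9955141: agcccaaacaaaTAGGGTTTaagagcccat
The word begins at base 33, with the gene start counted as base 1. The match describes these letters only.

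All 6 subunits were expressed at every age, in every library, at moderate levels. On the FPKM scale, which corrects for transcript length, VRN2 averaged 18.9 ± 2.27 FPKM, CLF 16.6 ± 1.81, MSI1 16.3 ± 1.96, EMF2 10.3 ± 1.22, FIE 7.87 ± 1.55 and SWN 7.20 ± 0.743 (SD, n = 19 libraries each). The values of EMF2 and VRN2 carry up to 10 significant digits in the table, as more than 6 do for 22.1% of loci with a value above 0, whereas the other members carry 6. How such rows were made is not stated, so the place of EMF2 and VRN2 beside the others is less sure. The 6 genes stood in a higher and a lower set of 3. Neighbours within the higher set changed places: VRN2 was above CLF in 17 libraries of 19 and CLF above MSI1 in 13. FIE was above SWN in 10. The mean log2 ratio of neighbours was no larger than its SD for VRN2 to CLF (0.19, SD 0.19), CLF to MSI1 (0.03, SD 0.20) and FIE to SWN (0.11, SD 0.26). MSI1 was above EMF2 in 19 libraries of 19, by a mean log2 ratio of 0.66 (SD 0.18), and EMF2 above FIE in 17.

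**Figure D1:**
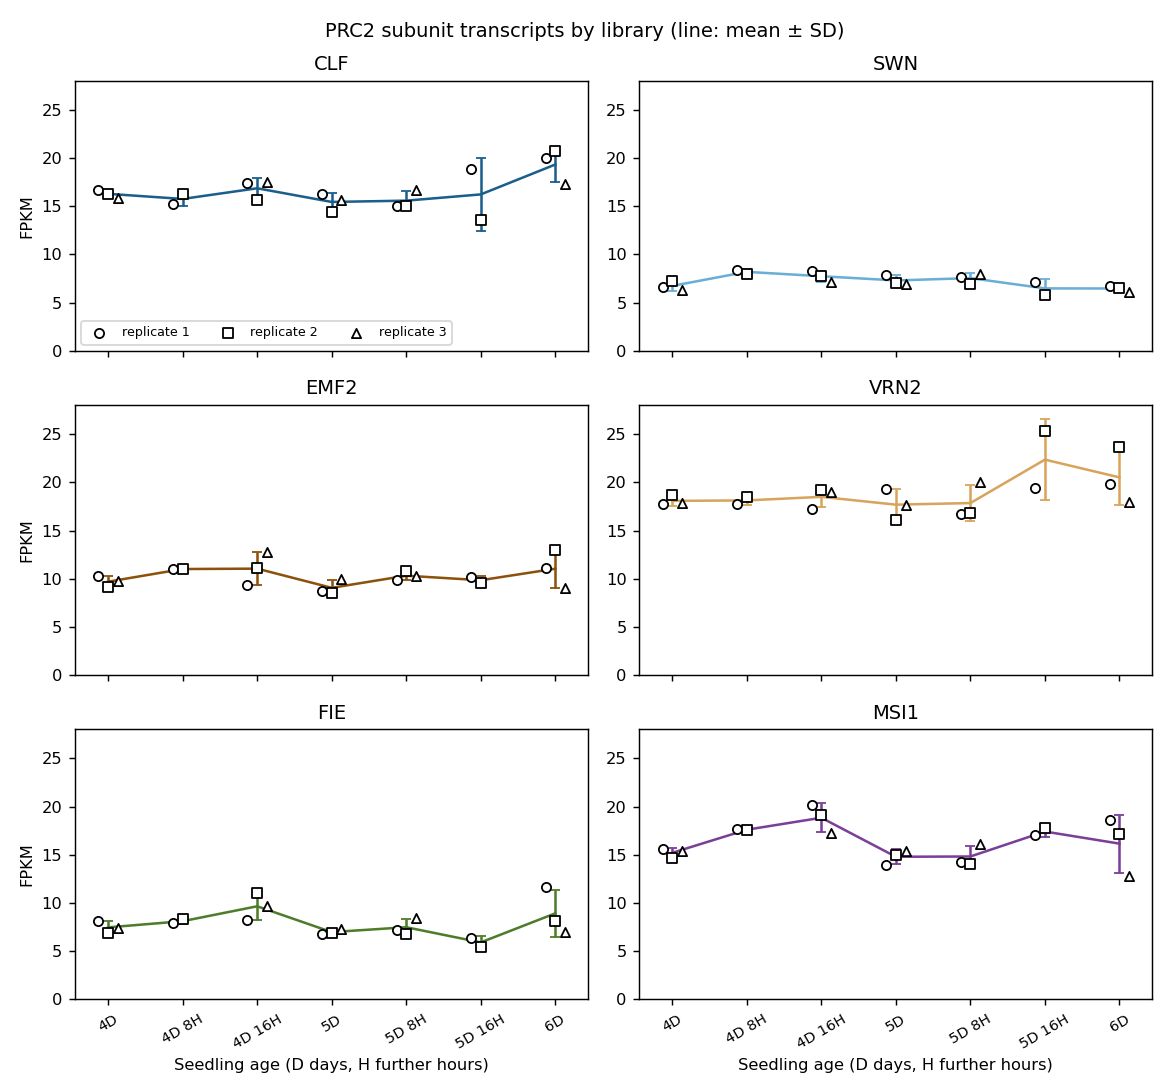
FPKM (vertical axis) of each PRC2 subunit in the 19 libraries against seedling age, with 1 symbol per library and a line through the mean ± SD of each age. The 6 genes keep to narrow bands, between 5.40 FPKM (FIE at 5D 16H) and 25.4 FPKM (VRN2 at 5D 16H), and FIE has the widest course.

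To ask whether age changed these levels, the 7 time points were compared by a moderated F test in limma on log2(FPKM + 1). Of the 6 subunits, 0 passed at an adjusted p of 0.05, whereas 29.7% of all 18087 loci tested did. At an unadjusted p under 0.05 the count was 1 of 6 (FIE), against 45.7% of all loci. The ratio of the highest to the lowest time-point mean was between 1.22 (EMF2) and 1.27 (MSI1) for 5 of the genes and 1.63 for FIE, and its median over all loci was 1.55. FIE had the smallest adjusted p of the F test (0.0872), then MSI1 (0.133), SWN (0.168), CLF (0.245), VRN2 (0.302) and EMF2 (0.438). Without the shallow library the order changed: CLF had 0.0767, MSI1 0.158, SWN 0.168, FIE 0.187, EMF2 0.456 and VRN2 0.614 (limma, adjusted p), and 0 of 6 passed. The calls turned on single libraries: FIE passed without 6D replicate 1 (adjusted p = 0.0459) or without 6D replicate 3 (0.0364), MSI1 without 6D replicate 3 (0.0253), and CLF without 5D 16H replicate 1 (0.0399), all by limma.

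Steps of 8 h and differences of whole days were read as contrasts of the same fit, later minus earlier. Over the 6 steps, 0 of 36 member contrasts passed by limma with Benjamini-Hochberg adjustment, and 5 had an unadjusted p under 0.05. Those were at 4D 8H, 5D, 5D 16H and 6D, each against the age before. There 14.4%, 28%, 25.8% and 29.7% of all loci had such a p. Of all loci, 0.133%, 0%, 10.7%, 0.0498%, 6.96% and 12.3% passed in the steps in order of age. Over the 3 whole-day contrasts 0 of 18 passed, where 1.3% (5D minus 4D), 12.9% (6D minus 5D) and 7.59% (6D minus 4D) of all loci passed. An unadjusted p under 0.05 was reached by 1 of the 18, at 6D minus 5D, where 26.5% of all loci reached it. The 95% interval lay within a 2-fold change either way in 54 of the 54 member contrasts, and held 0 in 48 of them. The smallest adjusted p was 0.0613.

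**Figure D2:**
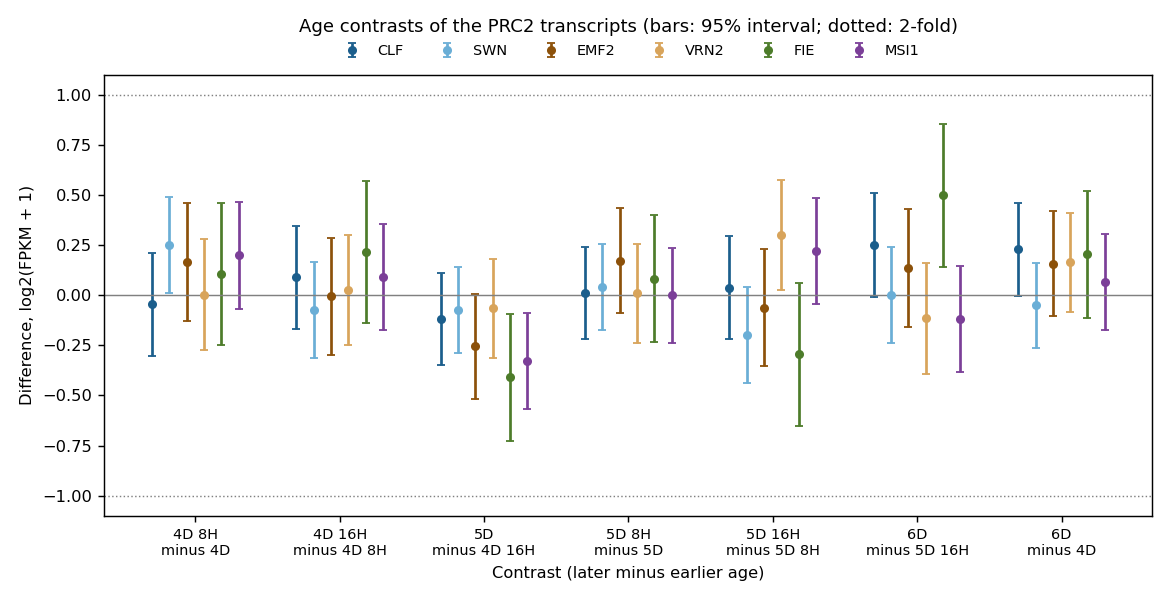
Difference in log2(FPKM + 1) between ages, later minus earlier (vertical axis), for the 6 steps of 8 h and for 6D minus 4D, with 95% intervals from limma and 1 colour per gene. Dotted lines mark a 2-fold change, which no interval reaches. The FIE interval reaches farthest, to 0.85 at 6D minus 5D 16H.

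The catalytic subunits are CLF and SWN. CLF, whose loss causes curled leaves and early flowering, had 16.7, 16.3 and 15.9 FPKM at 4D, 15.2 and 16.3 at 4D 8H, and 17.4, 15.7 and 17.5 at 4D 16H. It had 16.3, 14.5 and 15.6 FPKM at 5D, 14.99, 15.1 and 16.7 at 5D 8H, 18.9 and 13.6 at 5D 16H, and 20.0, 20.7 and 17.3 at 6D. The 3 libraries of 6D lay above the 3 of 5D, and the 2 of 5D 16H spanned most of the range. CLF was higher at 6D than at 5D by 0.30 on the log2 scale (SE 0.11, 1.23-fold, 95% interval 1.05 to 1.45), with an unadjusted p of 0.0132 and an adjusted p of 0.0812 (limma). It was the 1 member of 6 with an unadjusted p under 0.05 there, against 26.5% of all loci. The groups of 2 members did not overlap in that contrast, CLF and SWN, against 32% of all loci. The CLF contrast passed without either library of 5D 16H (adjusted p = 0.0287 without replicate 1 and 0.0285 without replicate 2), without 6D replicate 3 (0.0411) and after quantile normalization (0.0449). The step from 5D 16H to 6D was 0.25 (adjusted p = 0.178, limma), 0.48 without 5D 16H replicate 1 (adjusted p = 0.0110) and 0.03 without replicate 2 (0.930).

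SWN, which acts beside CLF, had 6.63, 7.28 and 6.32 FPKM at 4D, 8.43 and 7.97 at 4D 8H, and 8.29, 7.76 and 7.19 at 4D 16H. It had 7.90, 7.04 and 6.98 FPKM at 5D, 7.68, 6.96 and 8.01 at 5D 8H, 7.17 and 5.80 at 5D 16H, and 6.70, 6.57 and 6.15 at 6D. Its lowest time-point means were 6.47 FPKM at 6D and 6.48 FPKM at 5D 16H, but without the shallow library 5D 16H stood at 7.17 FPKM, above the 6.74 FPKM of 4D. SWN was the gene with the smallest SD over libraries (0.743 FPKM), and the 3 libraries of 6D lay below the 3 of 5D, by 0.15 on the log2 scale (95% interval -0.37 to 0.06, adjusted p = 0.364, limma). At 4D 8H it was 0.25 above 4D (unadjusted p = 0.0415, adjusted p = 0.324, limma), with groups that did not overlap, as was so for 3 of the 6 genes and 39.6% of all loci. SWN was the 1 member of 6 with an unadjusted p under 0.05, against 14.4% of all loci.

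Since both transcripts were measured in the same libraries, their FPKM ratio was taken within each library, which removes any scaling of the library. CLF was above SWN in 19 of 19 libraries, with a mean FPKM ratio of 2.32 ± 0.367 (SD). The mean ratio was 2.42 at 4D, 1.93 at 4D 8H, 2.19 at 4D 16H, 2.12 at 5D, 2.07 at 5D 8H, 2.49 at 5D 16H and 2.98 at 6D. The libraries of 6D had 2.98, 3.16 and 2.81, and the highest elsewhere was 2.64 at 5D 16H. The ratio differed between ages by more than the replicates did (permutation test of the F over ages, 100000 draws, p = 0.00046, adjusted p = 0.00092 over 2 ratios). The value tested was the difference of log2(FPKM + 1), in which library scaling does not fully cancel. This result rested on the oldest seedlings: without 6D, a comparison chosen after seeing the values, the permutation p was 0.0375 and its adjusted p 0.0749. With any single library left out the adjusted p stayed between 4e-04 and 0.00506. Beyond EMF2 to VRN2, given below, no ratio of another gene pair was tested. Of single loci, 45.7% had an unadjusted p under 0.05 over ages (limma F test). The result is thus not shown to be particular to CLF and SWN. Markers of other cell types also moved at 6D against 5D. For genes other than the subunits, here and below, fell and rose mean an adjusted p under 0.05 by limma. Lower and higher give the sign of the fitted difference alone. Of all loci 12.9% passed in this contrast, in either direction. Endodermis markers fell in 3 of 3, with a summed level of 467 to 576 FPKM at 6D and 979 to 1366 FPKM at 5D. Of 3 xylem vessel markers 1 fell and 3 were lower (63.2 to 124 FPKM summed at 6D, 132 to 222 at 5D). Of 3 phloem markers 1 fell and 3 were lower (sums at 6D at most 18.2 FPKM, at 5D at least 26.1). Of 3 root hair markers 1 fell and 2 were lower (360 to 433 and 507 to 896 FPKM). Of 6 stem cell niche markers 2 fell and 3 were lower (27.8 to 30.4 and 32.2 to 36.1 FPKM). Of 6 root cap markers 1 rose and 5 were higher (576 to 754 and 456 to 590 FPKM). Their part in the ratio was not tested.

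The zinc finger subunits are EMF2, which keeps seedlings from flowering at once, and VRN2, named for its part in the memory of cold. EMF2 lay between 8.47 FPKM (5D replicate 2) and 13.0 FPKM (6D replicate 2), with a median of 10.1 FPKM. Its time-point means ran from 9.05 ± 0.817 FPKM at 5D to 11.0 ± 1.73 at 4D 16H (SD, n = 3 each), and it had the largest p of the 6 in the F test. VRN2 lay between 16.1 FPKM (5D replicate 2) and 25.4 FPKM (5D 16H replicate 2), with a median of 18.5 FPKM. Outside 5D 16H and 6D its time-point means stayed between 17.7 and 18.5 FPKM. At 5D 16H it had 19.4 and 25.4 FPKM, against 16.7, 16.8 and 20.0 FPKM at 5D 8H. The ranges overlapped, and the difference was 0.30 on the log2 scale (unadjusted p = 0.0341, adjusted p = 0.155, limma). It was 0.12 without the shallow library (adjusted p = 0.751) and 0.49 without the other (adjusted p = 0.0270). VRN2 was the 1 member of 6 with an unadjusted p under 0.05 in that step, against 25.8% of all loci. The groups of 2 other members, FIE and MSI1, did not overlap there, against 38.9% of all loci.

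VRN2 was above EMF2 in 19 of 19 libraries, with a mean EMF2 to VRN2 ratio of 0.548 ± 0.0674 (SD). The highest mean ratio was 0.607 at 4D 8H and the lowest 0.450 at 5D 16H, where the shallow library had 0.376 and the other 0.524. Without the shallow library the lowest mean was 0.514, at 5D. It did not pass the test over ages (permutation p = 0.126, adjusted p = 0.126), nor without the shallow library (adjusted p = 0.385), but did without 5D 16H replicate 1 (adjusted p = 0.0290), which leaves the shallow library alone at that age. For the slope on age over the 7 time points, 0 of the 6 genes passed by limma, against 14.9% of all loci, and 1 had an unadjusted p under 0.05, against 29.6%. That gene was VRN2, with a slope of 0.11 per day on the log2 scale (adjusted p = 0.165), or 0.15 without 5D 16H replicate 1 (adjusted p = 0.0399) and 0.07 without replicate 2 (0.396).

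**Figure D3:**
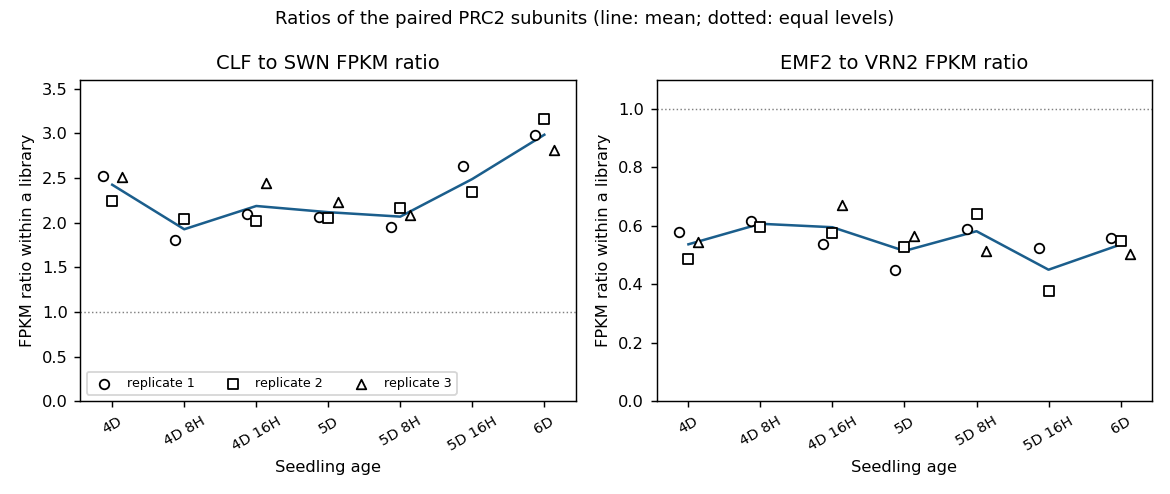
FPKM ratio within each library (vertical axes) of CLF to SWN and of EMF2 to VRN2 against seedling age, with 1 symbol per library, a line through the means and a dotted line at equal levels. CLF exceeds SWN in 19 of 19 libraries, and the 3 libraries of 6D (2.81 to 3.16) are above the rest, while EMF2 to VRN2 stays between 0.376 and 0.671.

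The shared WD40 subunits were the members that differed most between 4D 16H and 5D. FIE had 8.10, 6.83 and 7.45 FPKM at 4D, 7.87 and 8.34 at 4D 8H, and 8.21, 11.1 and 9.68 at 4D 16H. It had 6.78, 6.88 and 7.26 FPKM at 5D, 7.21, 6.75 and 8.48 at 5D 8H, 6.41 and 5.40 at 5D 16H, and 11.6, 8.12 and 6.99 at 6D. FIE was thus high at 4D 16H and at 6D, where replicates also spread most, and low at 5D 16H.

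MSI1 had 15.6, 14.6 and 15.4 FPKM at 4D, 17.6 and 17.6 at 4D 8H, and 20.2, 19.1 and 17.2 at 4D 16H. It had 13.9, 15.004 and 15.4 FPKM at 5D, 14.2, 14.1 and 16.1 at 5D 8H, 17.0 and 17.8 at 5D 16H, and 18.6, 17.1 and 12.8 at 6D. Like FIE, MSI1 had its highest mean at 4D 16H, and the 3 libraries of 4D 16H lay above the 3 of 5D for both genes.

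At 5D against 4D 16H the fitted difference was below 0 for 6 of the 6 subunits, with a median of -0.19 on the log2 scale. The median over all loci was -0.07, so most loci were lower as well. MSI1 differed by -0.33 (SE 0.11, unadjusted p = 0.00995, adjusted p = 0.0705) and FIE by -0.41 (SE 0.15, unadjusted p = 0.0147, adjusted p = 0.0870), by limma. In this contrast 0 of 6 passed, against 10.7% of all loci, 2 had an unadjusted p under 0.05, against 28% of all loci, and 2 had groups that did not overlap, against 36.2%. The MSI1 contrast passed without 6D replicate 3 (adjusted p = 0.0165) and the FIE contrast without 6D replicate 1 (adjusted p = 0.0389). Neither of those libraries is among the ages compared, and leaving them out changes the spread that all ages share.

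At 6D against 5D 16H, FIE had 11.6, 8.12 and 6.99 FPKM, against 6.41 and 5.40 FPKM. The groups did not overlap, as for 1 of the 6 members and 33.3% of all loci, and 1 of 6 had an unadjusted p under 0.05, against 29.7%. The difference was 0.50 on the log2 scale (SE 0.17, 1.41-fold, 95% interval 1.11 to 1.81), with an adjusted p of 0.0613 (limma). It was 0.39 without the shallow library (adjusted p = 0.316), 0.60 without 5D 16H replicate 1 (adjusted p = 0.0455) and 0.64 without 6D replicate 3 (adjusted p = 0.0220). It passed after upper quartile scaling (adjusted p = 0.0364) and after quantile normalization (0.0303).

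Whether the 3 steps after 5D differed from the same steps after 4D was tested with an F over the differences. Of the members 0 passed by limma, against 11.6% of all loci, and 1 had an unadjusted p under 0.05, against 30.8%. That was FIE, at an adjusted p of 0.0525, whose steps after 4D were 0.11, 0.22 and -0.41 on the log2 scale and those after 5D 0.08, -0.30 and 0.50. FIE passed without 4D 16H replicate 1 (adjusted p = 0.0433), 5D 16H replicate 1 (0.0399) or 6D replicate 3 (0.0164), with a mean of at least 5 FPKM required (0.0486), and after upper quartile (0.0451) or quantile normalization (0.0400). Without the shallow library its adjusted p was 0.169. CLF passed this test without 5D 16H replicate 1 (adjusted p = 0.0384).

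Cell division genes moved in the same contrast. At 5D against 4D 16H, 11 of 15 S phase genes fell and 0 rose, where 7.14% of all loci fell. By sign alone 14 were lower and 1 higher, with a median of -0.63 on the log2 scale. Their summed level was 307 to 332 FPKM at 5D and 441 to 470 FPKM at 4D 16H. HTR13, a histone H3 gene, differed by -1.22 (adjusted p = 0.00905) and MCM2, of the replicative helicase, by -0.66 (adjusted p = 0.0253, limma). Of the G2/M list 1 of 5 fell, CYCB1;2, a mitotic cyclin (-0.52, adjusted p = 0.0366, limma), and 4 of 5 were lower by sign. The part of these genes, and of the mix of cells, in the values of FIE and MSI1 was not tested. Root cap markers were also lower, 3 of 6 past the test, with sums of 456 to 590 FPKM at 5D and 590 to 700 FPKM at 4D 16H, and of the stem cell niche markers 2 rose and 2 fell.

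MSI1 also serves outside PRC2, in chromatin assembly factor 1 with FAS1 and FAS2 and in histone deacetylase complexes with HDA19. Of 7 genes of such complexes, 2 fell at 5D against 4D 16H: FAS2 (1.18 FPKM at 5D and 2.20 at 4D 16H, -0.56 on the log2 scale, adjusted p = 0.0299) and HDA19 (36.3 and 48.5 FPKM, -0.41, adjusted p = 0.0241, limma). By sign 6 of the 7 were lower, with a median of -0.21, and 7.14% of all loci fell. The MSI1 paralogs were all tested, 4 of 4 were lower there by sign, and 1 of 4 fell. That was MSI2, with 6.22 FPKM at 5D and 9.42 at 4D 16H (-0.53, adjusted p = 0.0352, limma). MSI3 passed the F test over ages (adjusted p = 0.0380) and averaged 5.40 FPKM at 6D and 8.25 at 5D 16H, a difference of -0.55 (adjusted p = 0.0469) that was -0.60 without the shallow library (adjusted p = 0.137, limma). MSI4, an activator of flowering, averaged 13.8 FPKM.

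The subunits of the reproductive complexes were near the floor. MEA averaged 0.621 FPKM and FIS2, the zinc finger subunit of the endosperm, 0.509 FPKM, and 0 of these 2 reached the mean of 1 FPKM needed for a test.

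Of 22 listed partners and recruiters of PRC2, 21 were in the table and 19 tested, with a median level of 12.3 FPKM. VEL1, a PHD finger protein that joins PRC2, was the highest at 57.2 FPKM, while VIN3, its cold-induced relative, averaged 0.0899 FPKM and was not tested. Over ages 3 of 19 passed the F test by limma, against 29.7% of all loci. VRN1, a DNA-binding protein of the vernalization response, fell at 6D against 5D, with 23.0 FPKM at 6D and 36.0 at 5D (-0.64, adjusted p = 0.00512), and had an F test adjusted p of 0.0164. TRB2, of the telobox-binding proteins, rose at 5D against 4D 16H, with 22.5 FPKM at 5D and 14.9 at 4D 16H (0.57, adjusted p = 0.0140). EBS, a reader of histone H3 marks, had 17.6 FPKM at 4D 8H and 11.9 at 4D (F test adjusted p = 0.0370). LHP1, the reader of H3K27me3, averaged 6.43 FPKM and did not pass (adjusted p = 0.225).

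Of the 9 genes of PRC1, which adds ubiquitin to histone H2A, and of the VAL recruiters, 8 were tested and 2 passed the F test, against the same 29.7%. RING1B, a PRC1 ubiquitin ligase, fell at 6D against 5D, with 4.94 FPKM at 6D and 7.80 at 5D (-0.58, adjusted p = 0.0162), and differed from 5D 16H by -0.68 (adjusted p = 0.0174), or by -0.59 without the shallow library (adjusted p = 0.126). BMI1C had its lowest mean at 4D 8H (1.19 FPKM) and its highest at 4D (2.34 FPKM), with an F test adjusted p of 0.0294. VAL1, VAL2 and EMF1 averaged 9.92, 14.5 and 10.6 FPKM and did not pass.

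Of 13 listed genes that act against Polycomb silencing, 12 were in the table and 10 tested, with a median level of 8.27 FPKM, and 1 passed the F test, again against 29.7%. The H3K27me3 demethylases REF6, ELF6 and JMJ13 averaged 5.38, 9.61 and 61.6 FPKM and did not pass. ULT2, of the trithorax group, passed (adjusted p = 0.0310), with means of 5.09 FPKM at 5D 16H and of 1.13 to 2.05 FPKM at the other ages, and did not pass without the shallow library (adjusted p = 0.204). ATXR5, 1 of 2 monomethyltransferases of the same lysine, passed (adjusted p = 0.0278), with 5.63 FPKM at 6D and 2.49 at 5D 16H. Without the shallow library its F test had an adjusted p of 0.128. ATXR6, the other, fell at 5D against 4D 16H, with 1.26 FPKM at 5D and 3.21 at 4D 16H (-0.90, adjusted p = 0.0171, limma).

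The genes that PRC2 is known to silence were mostly listed at or near 0. Of 25 such targets 25 were in the table, their median level was 0.112 FPKM, and 2 had the mean of 1 FPKM needed for a test. Of all 33201 loci, 18087 had that mean and 6516 were at 0 in every library. The flowering signal FT, the flower organ genes AG and SUP and the embryo regulator FUS3 were listed at 0 in 19 of 19 libraries. FLC, the flowering repressor, averaged 0.739 FPKM, and the shoot meristem genes STM and WUS 0.0122 and 0.00646 FPKM. The exceptions were KNAT6, a homeobox gene also used in roots, at 6.35 FPKM, and AP3, a petal gene, at 1.21 FPKM. KNAT6 passed the F test (adjusted p = 0.0234) and fell at 6D against 5D, with 4.59 FPKM at 6D and 7.81 at 5D (-0.67, adjusted p = 0.0153, limma).

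**Figure D4:**
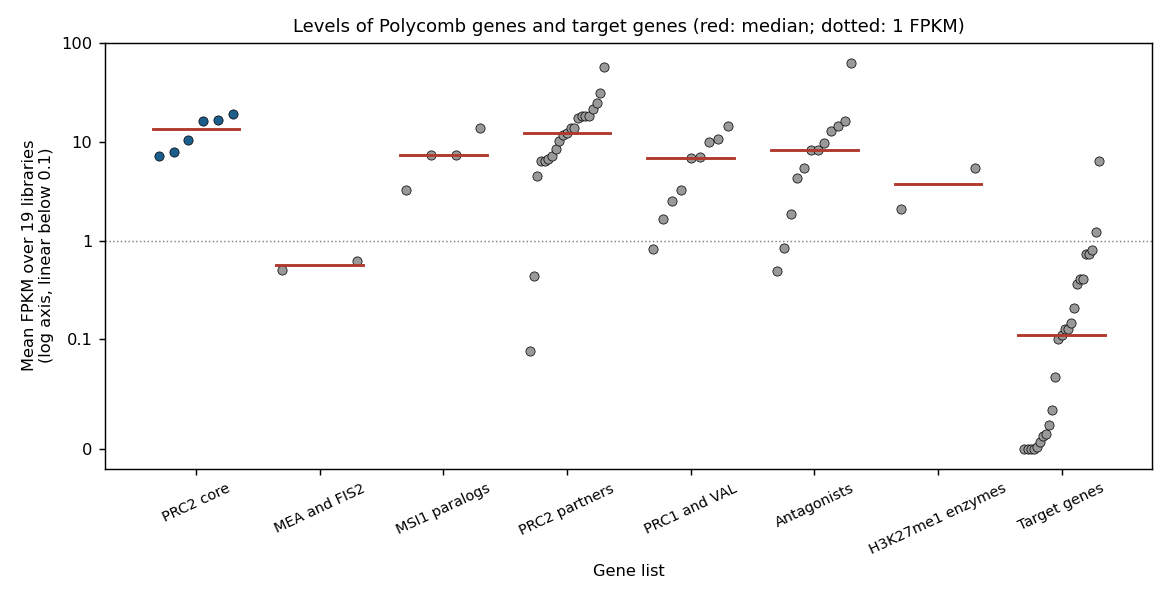
Mean FPKM over the 19 libraries (vertical axis, log scale above 0.1 and linear below) of each gene in the PRC2 core, its relatives, partners, antagonists and targets, 1 point per gene, with a red line at each list's median. The core lies between 7.20 and 18.9 FPKM, MEA and FIS2 lie below 1 FPKM, and 23 of 25 targets lie below the dotted line at 1 FPKM. Of all 33201 loci, 18087 averaged 1 FPKM or more.

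It was then asked whether the subunits rose and fell together from library to library. Over 19 libraries, which share age and FPKM scaling, 12 of 15 pairs had a Pearson r above 0, with a median of 0.30. The same values were not taken for pairs of other loci, so these counts do not set the subunits apart. After adjustment over the 15 pairs 0 passed by Pearson's r (permutation test, 100000 draws), and 5 had an unadjusted p under 0.05. FIE and EMF2 had the highest r, 0.57 (permutation p = 0.0111, adjusted p = 0.146), with a Spearman rho of 0.65 (permutation p = 0.00308, adjusted p = 0.0462), and r became 0.59 once the 2 libraries most distant from the FIE median were dropped. FIE and MSI1 followed with r = 0.51 (permutation p = 0.0237, adjusted p = 0.146), a rho of 0.58 (permutation p = 0.0105, adjusted p = 0.0790) and r = 0.31 after the same step. CLF and SWN had r = -0.03 over all libraries (permutation p = 0.895), and r = 0.64 once the mean of each age was removed. The permutation test of the latter (adjusted p = 0.0389) took no account of the means removed, so no call is drawn from it. With age means kept and the shallow library left out, 4 pairs passed the permutation test. They were CLF and VRN2 (r = 0.79, against 0.25 with that library, adjusted p = 0.0012) and FIE and MSI1 (r = 0.69, adjusted p = 0.00945). The others were EMF2 and VRN2 (r = 0.58, against 0.34 with that library, adjusted p = 0.0490) and FIE and EMF2 (r = 0.57 with and without it, adjusted p = 0.0490).

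Among 12904 loci averaging 5 FPKM or more, the 3 whose log2 values were most like each member over the 19 libraries were sought, as a description. For CLF they were AT1G57540 (Pearson r = 0.89), AT5G15265 (0.86) and AT1G53180 (0.86). SWN was nearest to HOS15 (0.89), a WD40 repeat protein, AT3G62790 (0.88) and AT3G02910 (0.88). FIE was nearest to AT2G34020 (0.88), EB1C (0.88), which binds microtubule ends, and FLA10 (0.87). For EMF2 they were AT1G08750 (0.83), the replication licensing gene CDT1A (0.80) and AT2G18400 (0.80). VRN2 was nearest to the calcium sensor gene CBL9 (0.90), AT5G64010 (0.85) and AT5G53940 (0.81), for which r was 0.81, 0.73 and 0.65 without the shallow library. MSI1 was nearest to TOC34 (0.92), of the plastid import machinery, AT4G02230 (0.92) and the cap-binding factor EIF4E (0.90). No subunit was among the 3 nearest of another. An r above 0.8 was reached by 244 loci for MSI1, 104 for SWN, 40 for FIE, 16 for CLF, 5 for VRN2 and 3 for EMF2. The places changed without the shallow library. Without it the 3 loci ranked 2, 5 and 6 for CLF, 3, 32 and 38 for SWN, and 3, 6 and 9 for FIE. They ranked 4, 11 and 12 for EMF2, 2, 9 and 49 for VRN2, and 5, 6 and 17 for MSI1.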

How the data were processed

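The authors deposited 1 table of FPKM for 19 libraries. Their methods name single-end reads, Bowtie, the Tuxedo tools and Rsubread and the exclusion of replicates of poor quality, and the submitters' processing notes name TopHat, Cufflinks and TAIR10. Versions, annotation, multimapping and strand use are not given in the sources used here. The labels name a stranded mRNA kit, the methods another kit, so the library type is uncertain. Of the loci, 6516 were at 0 in every library.

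Groups came from the sample titles. Values were tested as log2(FPKM + 1), which understates fold changes of low genes, with limma (version 3.58.1, R 4.3.3). The 18087 loci averaging 1 FPKM or more were tested, and 6 of 6 members reached that level. The fit had 1 mean per time point and a variance trend, with Benjamini-Hochberg adjustment over all loci at 0.05. Ratios and correlations were tested by permutation with 100000 draws. Depth was read from the most frequent step between low values. Peaks at smaller steps exist, and taking those as 1 read would raise the depths, so depth is approximate, and between 31.2% and 50% of low values lay near whole reads, too few for a count test. The members and lists were chosen with earlier results of these data known. Named beyond the members were list genes that passed the F test, with a few others for their role, and for each member its 3 most similar loci. HDA19, MSI2, and other genes called only in a single contrast, and genes given as level examples, were named after their values were seen. Genes were located on the RefSeq annotation of TAIR10.1, which matched 32489 loci.

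In simulated data with the spread of the 18087 loci, the F test recovered 89% of loci changed by 1 and 50% of those changed by 0.5 on the log2 scale, and 6 of its 145 calls were false. The contrast of 5D with 4D 16H recovered 80% and 35%, with 3 of 118 calls false. In the simulated tables loci were altered from 5D on, and 4D 8H against 4D, left unaltered, gave 0 calls. Recovery at steps with an age of 2 libraries was not tested. The simulation altered 100 loci by each size, whereas 29.7% of the 18087 loci passed the F test in the data. Its adjusted threshold was therefore stricter, and it gave the shallow library the same spread as the others. The recovered shares are thus not those of the tests reported.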

Additional observations from a re-analysis of the deposited data

How the results depend on the processing

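Alternatives were a pseudocount of 0.1, no filter or a mean of at least 5 FPKM, upper quartile and quantile normalization, a variance prior without a trend, only the ages compared, no 5D 16H, a replicate block and each library left out, with no 6D added after seeing the data. Without the shallow library, ULT2 and ATXR5 lost their F test call (adjusted p = 0.204 and 0.128), and HTR13 of the S phase list had 0.0570. Of 1980 member comparisons 1955 stayed on their side of the threshold, 25 gained a call and 0 turned round. With 0 members called at first, no call could be lost. The count of members called, 0 at first, was 1 for the steps under upper quartile scaling and 1 under quantile normalization (FIE, 6D minus 5D 16H). For whole days it was 1 under quantile normalization and 1 without 5D 16H (CLF, 6D minus 5D), and for the days' steps 1 at a mean of at least 5 FPKM, 1 under upper quartile and 1 under quantile normalization (FIE). With a library left out the counts ranged from 0 to 2 for the F test, 0 to 3 for the steps, 0 to 1 for whole days, 0 to 1 for the slope and 0 to 2 for the days' steps. A library alone at its age was assumed to vary like the others. The adjusted p of the CLF to SWN ratio was 4e-04 to 0.00506 and that of EMF2 to VRN2 0.0290 to 0.385 with a library left out, and the first was 0.0749 without 6D (permutation tests). Correlated pairs numbered 1 with age means removed, by a permutation that took no account of those means, and 4 without 5D 16H replicate 2. Whether replicate numbers pair libraries is not stated. Same-numbered ones of different ages deviated from their age means with a median correlation of 0.0036, with 10 of 52 above 0.1. For different-numbered ones the median was -0.0026, with 18 of 102 above 0.1. These medians cannot exclude that some libraries were paired. With the replicate block 0 members passed in each of the 5 tests, and the ratios kept their side of the threshold (adjusted p = 0.00118 for CLF to SWN, 0.203 for EMF2 to VRN2, permutation tests). The causes were not tested. Depth limits FIE most, with an estimated 8.99 reads in 5D 16H replicate 2, a counting error of 33.4%. Each age had 2 or 3 libraries, and in the simulated data changes of 0.5 on the log2 scale were often missed, even between ages with 3 libraries each.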
